A study of Mus musculus with 8 samples.

Results

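Schwann cell, myelin and cardiac nerve genes were followed through whole hearts of male and female mice, starting from Mal, a myelin and membrane raft gene that is lower in female hearts. The 8 genes listed were Mal, Mbp, Sox10, S100b, Ngfr, Dbh, Th and Prph. Mal was chosen by its measured difference in normalized read count between the sexes, so its values are a description without a test, and the others were listed by function. Of the 8, 7 had a row among the 17911 genes of the deposited table, and all of these stayed in after the filter on low values. Th is not analysed here.

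The hearts came from wild-type C57Bl6/J mice, 4 female (replicates 1 to 4) and 4 male (replicates 1, 3, 4 and 5), aged 4 weeks by one description and 4 to 6 weeks by another. Each library was made from a single heart, and all carried the same batch label. RNA was taken with a kit made for small RNA, while the molecule is recorded as total RNA. The libraries held 51699331 to 75742388 reads assigned to genes, fewest in female replicate 4 and male replicate 5. The labelled tissue was checked against its markers: all 10 cardiac muscle markers were present, with a summed normalized read count of 4529240 to 4936090 in females and 4370650 to 4736060 in males. Of the 10, 1 rose in females, the calcium release channel gene Ryr2, by 0.20 on a log2 scale (limma adjusted p = 0.0341). At an adjusted p under 0.05, limma called 0.475% of all genes higher in females. The call of Ryr2 held in 1 of the 8 fits that left out 1 heart, that without male replicate 5. It was lost without replicate 1 of both sexes (limma adjusted p = 0.134). DESeq2 also called Actc1, where it called 690 of all 17911 genes. A normalized read count is the number of reads of a gene divided by a size factor for the library. In such bulk samples, fewer cells of a type and less RNA per cell cannot be told apart.

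The heart is innervated by sympathetic fibres that release noradrenaline, by parasympathetic neurons that lie in ganglia on the atria, and by sensory fibres. Schwann cells ensheath these axons; most cardiac axons are thin and unmyelinated, and some are wrapped in compact myelin. Cell bodies of sympathetic and sensory neurons lie outside the heart, while the intrinsic ganglia and the Schwann cells lie within it.

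Per kilobase of annotated exon, Mal was the most abundant of the 7 genes and Ngfr the least. Mal had a mean level of 326 normalized reads per kilobase (224 to 478 over the 8 hearts) and Dbh 121 (108 to 139), and these ranges did not overlap. Sox10 (55.6), Mbp (52.6) and S100b (49.2) followed with ranges that overlapped each other. Prph (36.7) ran from 17.5 to 75.7 and Ngfr (30.4) from 19.6 to 43.8, which did not separate them. The length used for Mbp, 8469 bases, includes exons of its long alternative transcripts, which lowers its level on this scale.

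Mal was lower in every female heart than in any male heart. It encodes a small membrane protein of the MARVEL family, found in compact myelin, in the apical membranes of epithelia and in T cells. The gene lies on chromosome 2 (127633226 to 127656695, minus strand, mm10) and overlaps no other annotated gene. Its normalized read count was 682, 711, 622 and 682 in female replicates 1 to 4, and 1160, 1147, 1329 and 912 in male replicates 1, 3, 4 and 5. The female hearts lay close together, while the male hearts were spread more widely, with replicate 4 highest and replicate 5 lowest. Female hearts averaged 674 ± 37.4 and male hearts 1137 ± 171 (SD, n = 4 for each sex; later means are given likewise). On the scale of log2(normalized read count + 1) used throughout, the difference, female minus male, was -0.74, a level 1.67-fold higher in males. In the authors' deposited table the log2 fold change was -0.76. Hearts of the sexes did not overlap for 9.35% of all genes, with 4.82% of all genes lower and 4.52% higher in every female heart.

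**Figure D1:**
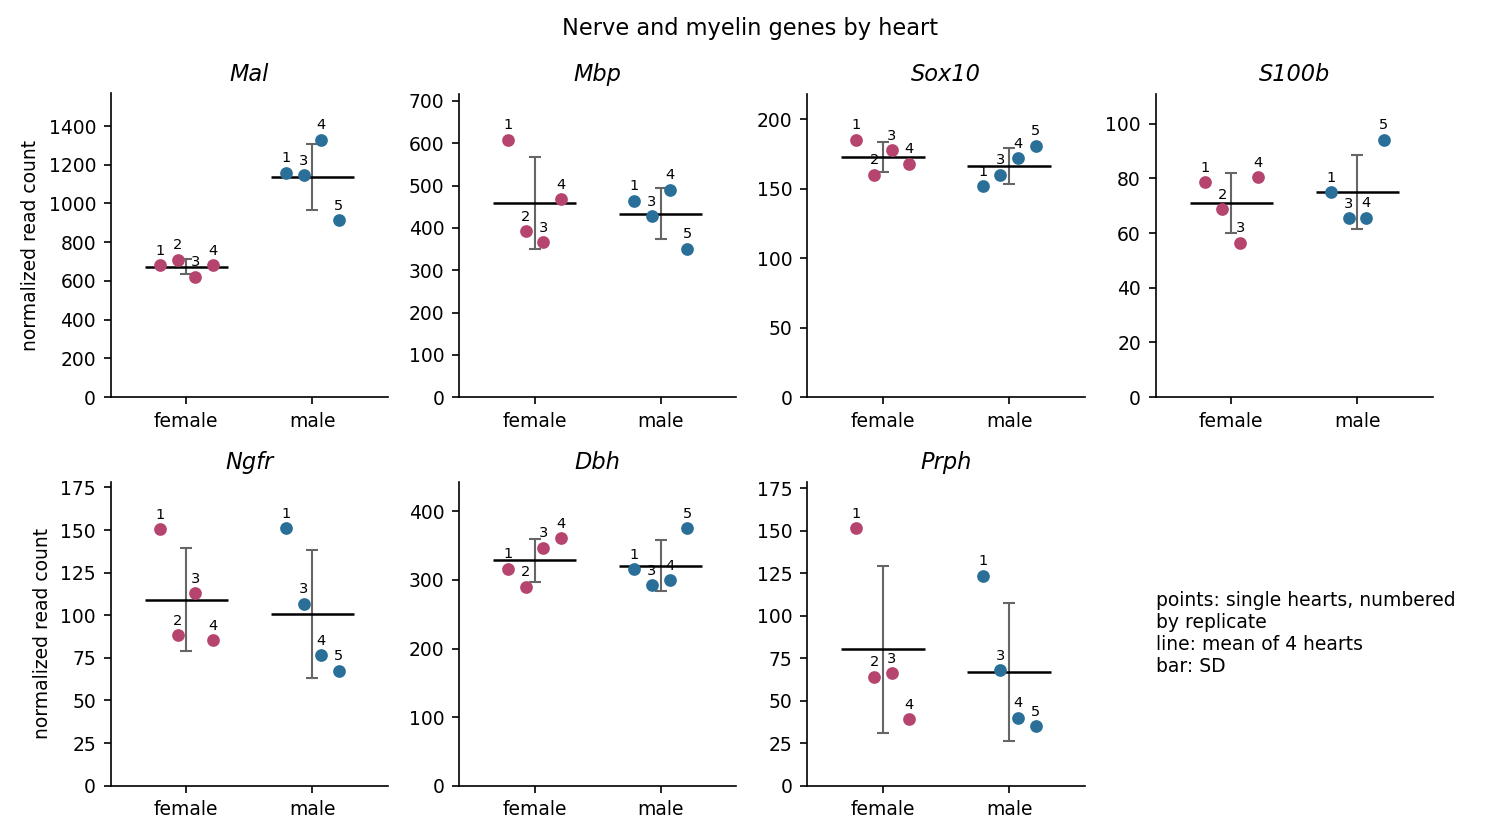
Normalized read count (y axis, from 0) of the 7 measured genes in each heart, by sex; points are single hearts with their replicate numbers, lines are means and bars SD of 4 hearts. Mal separates the sexes, with females at 622 to 711 and males at 912 to 1329, whereas the sexes overlap for the other 6 genes, and replicate 1 of each sex is highest for Ngfr and Prph.

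None of the other 6 measured genes passed the test for a difference between the sexes. By limma, 0 of 6 passed at an adjusted p under 0.05, where 1.16% of all genes did. At an unadjusted p under 0.05 the count was also 0, where 16% of all genes passed, and edgeR, DESeq2 and limma-voom on the recovered reads called 0. The difference was positive for 5 of the 6 and negative for S100b, and the sexes overlapped for each of them. These signs are not stable: each of the 6 turned under at least 1 other setting or without 1 heart.

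Mbp, which encodes a main structural protein of compact myelin, showed no such separation. Its normalized read count was 608, 392, 366 and 468 in the females and 464, 428, 490 and 351 in the males. Female replicate 1 was the highest heart, and the other 3 females lay within the male range. The log2 difference was 0.06 (SE 0.16, 95% interval -0.31 to 0.43, limma adjusted p = 0.895). Mbp lies on chromosome 18 and contains a ribosomal protein pseudogene on the opposite strand.

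Sox10, the transcription factor that Schwann cells need throughout life, varied little. It had 185, 160, 178 and 168 in the females and 152, 160, 172 and 181 in the males. All 8 hearts lay in one narrow band. The log2 difference was 0.06 (SE 0.10, 95% interval -0.16 to 0.27, limma adjusted p = 0.835). S100b, a calcium-binding protein of glia, had 78.6, 68.8, 56.4 and 80.4 in the females and 75.0, 65.4, 65.6 and 94.1 in the males. Female replicate 3 was the lowest heart and male replicate 5 the highest. The log2 difference was -0.08 (SE 0.17, 95% interval -0.44 to 0.29, limma adjusted p = 0.874). S100b overlaps Dip2a on the opposite strand. Whether counting used strand is not given in the sources used here, so reads of these 2 genes may be mixed.

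Dbh, the enzyme that makes noradrenaline from dopamine, was the gene of noradrenergic nerve on the list with a measured row. Its normalized read count was 316, 290, 347 and 361 in the females and 316, 293, 300.02 and 375 in the males. The highest heart of each sex was the one with the fewest reads, female replicate 4 and male replicate 5. The part of depth in which heart was highest was not tested. The log2 difference was 0.04 (SE 0.10, 95% interval -0.18 to 0.25, limma adjusted p = 0.903). With total reads as a covariate it was -0.083 (limma adjusted p = 0.695).

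Ngfr, the low-affinity neurotrophin receptor p75 of Schwann cells and sympathetic neurons, differed far more between hearts of 1 sex than between the sexes. It had 150.3, 88.2, 113 and 85.3 in the females and 151, 107, 76.7 and 67.6 in the males. Replicate 1 was the highest heart in each sex. The log2 difference was 0.15 (SE 0.26, 95% interval -0.44 to 0.74, limma adjusted p = 0.836). Prph, the intermediate filament of peripheral neurons, had the same hearts on top, with 151, 64.0, 66.0 and 39.0 in the females and 124, 68.0, 40.1 and 35.0 in the males. These values rest on 29 to 156 reads per heart. Its log2 difference was 0.27 (SE 0.51, 95% interval -0.93 to 1.46, limma adjusted p = 0.854).

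The 95% intervals reached down to -0.16 for Sox10, -0.18 for Dbh, -0.31 for Mbp and -0.44 for both S100b and Ngfr. That of Prph reached -0.93, the widest of the 6, since its hearts varied most within each sex.

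**Figure D2:**
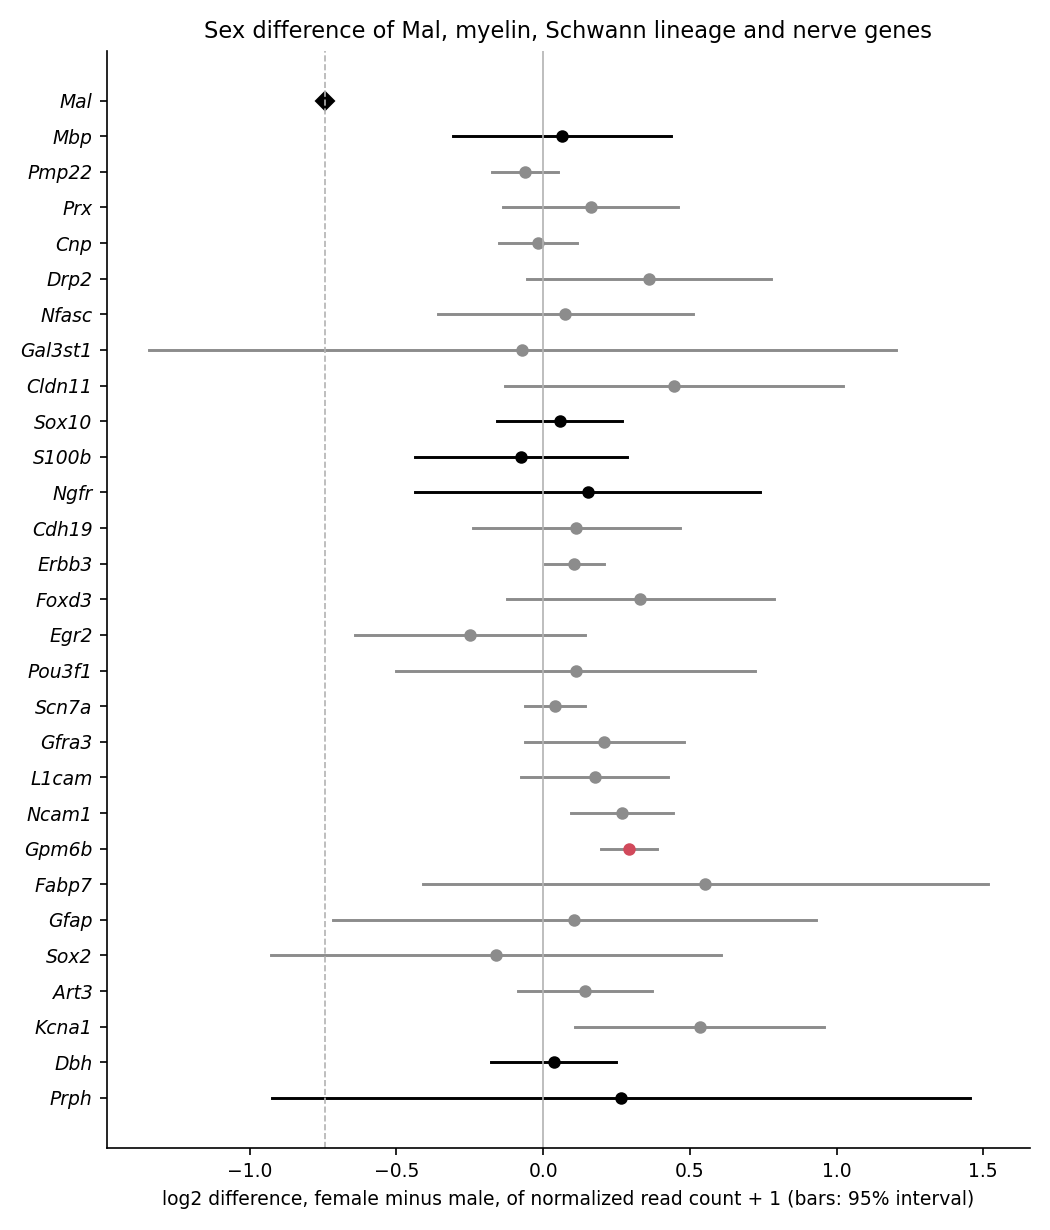
Log2 difference, female minus male (x axis), with 95% limma intervals for 8 myelin genes, 18 Schwann lineage genes, Dbh and Prph; black marks the listed genes, grey the others and red the point of Gpm6b. The diamond and dashed line show Mal at -0.74 without an interval, and the other points lie to the right of it, with Gpm6b at 0.29 past the test's threshold.

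With Mal set aside, the wider myelin list held no called gene. It named 22 genes for myelin proteins and lipid enzymes, of which 11 had a row. Of the 10 others, 0 passed in limma, edgeR, limma-voom or, for the genes it tested, DESeq2. An unadjusted p under 0.05 was found for 1 of them, beside 16% of all genes. The difference was positive for 7 and negative for 3, with a median of 0.10 beside 0.00 over all genes. Pmp22, a membrane protein of compact myelin that other cells also make, averaged 2993 ± 224 for females and 3119 ± 135 for males, with a log2 difference of -0.06 (limma adjusted p = 0.621). Cnp, the myelin phosphodiesterase, had 668 ± 36.1 and 676 ± 41.4, a difference of -0.02 (limma adjusted p = 0.928). Neither shared the gap seen for Mal.

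Of the 20 Schwann lineage genes, 1 rose in females and 19 did not pass the limma test. The difference was positive for 17 and negative for 3, where 49.1% of all genes were negative, with a median of 0.14 beside 0.00 over all genes. An unadjusted p under 0.05 was found for 5 genes, beside 16% of all genes. Higher calls made up 0.475% of all genes. The gene that rose was Gpm6b, a membrane glycoprotein of neurons and glia encoded on chromosome X (166238911 to 166388988, plus strand). It had 1631, 1634, 1464 and 1554 in the females and 1270, 1318, 1280 and 1257 in the males. Each female lay above each male, as for 4.52% of all genes, and the log2 difference was 0.29 (SE 0.04, limma adjusted p = 0.00906). Without replicate 1 of both sexes the call ended (difference 0.27, limma adjusted p = 0.0702).

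The other abundant genes of that list did not pass. Erbb3, the neuregulin receptor of Schwann cells, averaged 1254 ± 39.3 for females and 1165 ± 53.7 for males (SD, n = 4 for each sex), a log2 difference of 0.11 (limma adjusted p = 0.278). Scn7a, a sodium channel gene of unmyelinating Schwann cells, had 2310 ± 105 and 2247 ± 130, a difference of 0.04 (limma adjusted p = 0.742). Art3, with 20896 ± 1234 and 19049 ± 2795, gave 0.14 (limma adjusted p = 0.544). Per kilobase of exon Art3 averaged 5080 and Sox10 55.6, and which cells of the heart hold Art3 was not tested. Markers of melanocytes, which share neural crest origin, Sox10 and S100b with Schwann cells, were counted beside these genes. Of the 8 listed, 6 had a row, with none at 0 in any heart. In females 1 (Dct) rose, by 0.54 (limma adjusted p = 0.0366), where 0.475% of all genes were called higher. That call held only without male replicate 1 or 5 when hearts were left out 1 at a time (limma adjusted p up to 0.125 without another heart), and it was lost without replicate 1 of both sexes (limma adjusted p = 0.0779). Their summed level was 4594 to 5219 in females and 4353 to 4589 in males. Most of that sum was Mitf, with means of 3776 and 3539 and a log2 difference of 0.09 (limma adjusted p = 0.509). The difference was positive for 5 of the 6 markers and negative for Kit (-0.23), where 49.1% of all genes were negative. An unadjusted p under 0.05 was found for 2 of the 6, beside 16% of all genes. The part of melanocytes in the Schwann lineage values was not tested.

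Noradrenergic nerve genes showed no called difference. Of 14 listed, 12 had a row, and 0 passed in limma, edgeR, limma-voom or, for the genes it tested, DESeq2. At an unadjusted p under 0.05 there were 2, where 16% of all genes passed. The median difference was 0.03. Ddc, which makes dopamine, averaged 433 ± 65.5 for females and 430 ± 103 for males, with a log2 difference of 0.02 (limma adjusted p = 0.962). Slc18a2, the vesicular transporter that loads noradrenaline, had 184 ± 19.6 and 180 ± 14.5, a difference of 0.03 (limma adjusted p = 0.934). Cyb561, the cytochrome of secretory granules, had 860 ± 58.3 and 910 ± 146, a difference of -0.07 (limma adjusted p = 0.792). Npy, the peptide co-transmitter of sympathetic nerve, was chosen after its values were seen. It had 98.0, 90.2, 116 and 25.6 in the females and 47.6, 30.1, 23.9 and 50.7 in the males. Of the females 3 lay above every male and replicate 4 within their range (log2 difference 0.96, SE 0.48, limma adjusted p = 0.378).

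Ngfr and Prph varied together from heart to heart. Within the sexes, the deviations of their log2 values from the sex mean had a Pearson r of 0.96 and a Spearman rho of 0.95 (n = 8 hearts, two-sided exact permutation within the sexes, p = 0.00174 and 0.00347). Among the 21 pairs of the 7 genes the adjusted p was 0.0365 for r, the smallest this design allows, and 0.0729 for rho. Without the 2 hearts farthest from the median, replicate 1 of each sex, r was 0.86. With sex and total reads removed it was 0.95. Leaving out any heart lowers the number of arrangements so that no pair could pass (smallest possible adjusted p = 0.146).

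The other 20 pairs did not pass. Mal and Mbp had r = 0.59 and rho = 0.45 (exact permutation p = 0.0764 and 0.276, adjusted p = 0.535 and 0.656, n = 8), and r was 0.36 without male replicates 4 and 5. Mal and Dbh had r = -0.77 and rho = -0.74 (exact permutation p = 0.0625 and 0.0608, adjusted p = 0.535 and 0.638, n = 8), and r was -0.61 without the same hearts. Sox10 and S100b had r = 0.27 and rho = 0.33 (exact permutation p = 0.564 and 0.469, adjusted p = 0.83 and 0.656, n = 8), and r was -0.01 without male replicates 1 and 5. With sex and total reads removed, r was 0.47 for Mal and Mbp, -0.38 for Mal and Dbh and 0.10 for Sox10 and S100b. So neither the pair of glial genes nor Mal with Mbp passed as varying together.

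**Figure D3:**
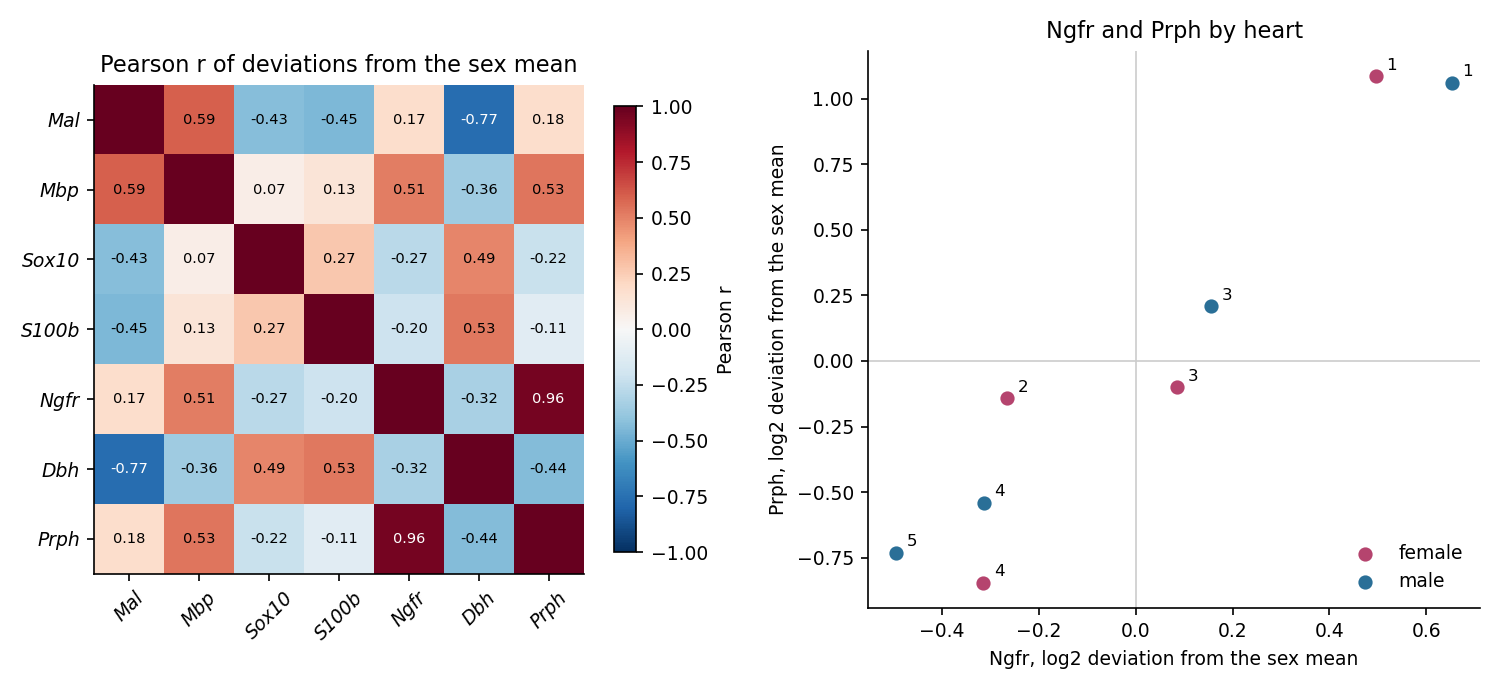
Left, Pearson r between the deviations from the sex mean for each pair of the 7 measured genes over 8 hearts. Right, these deviations for Prph (y axis, log2) against Ngfr (x axis, log2), one point per heart with its replicate number; the 8 points rise together (r = 0.96), replicate 1 of each sex being highest for both genes.

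The stretches just before the starts of Ngfr and Prph, which varied together, are shown with that of Mal, which did not follow them. They are the 250 bases before the RefSeq start (GRCm38.p6), read 5′ to 3′ on the strand of the gene. Capitals mark matches to 4 motifs searched on both strands. The motif of SOX factors was spelled ACAAAG, the box bound by the general transcription machinery at many starts TATAAA, the GC box GGGCGG and the half-site of steroid receptors AGAACA.
Mal, chr2:127656696-127656945, minus strand: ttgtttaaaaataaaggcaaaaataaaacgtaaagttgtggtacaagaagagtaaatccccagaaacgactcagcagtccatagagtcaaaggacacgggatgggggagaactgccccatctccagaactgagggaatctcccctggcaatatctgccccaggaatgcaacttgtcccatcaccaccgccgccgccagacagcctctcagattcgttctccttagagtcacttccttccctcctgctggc
Ngfr, chr11:95587699-95587948, minus strand: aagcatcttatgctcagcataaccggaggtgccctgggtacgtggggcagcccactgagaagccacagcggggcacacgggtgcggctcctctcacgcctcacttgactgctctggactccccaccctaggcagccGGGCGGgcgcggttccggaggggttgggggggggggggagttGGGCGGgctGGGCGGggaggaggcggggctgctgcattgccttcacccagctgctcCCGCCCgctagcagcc
Prph, chr15:99054924-99055173, plus strand: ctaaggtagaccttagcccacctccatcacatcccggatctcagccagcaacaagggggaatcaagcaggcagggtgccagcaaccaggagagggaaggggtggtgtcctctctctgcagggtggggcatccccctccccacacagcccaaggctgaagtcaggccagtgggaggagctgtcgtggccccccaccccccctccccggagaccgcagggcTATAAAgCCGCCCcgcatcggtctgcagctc
The Ngfr stretch held 4 GC boxes, 3 read as GGGCGG and 1 as CCGCCC, the nearest beginning 16 bases before the start. The Prph stretch held TATAAA, beginning 31 bases before the start, and 1 GC box. The stretch of Mal held none of the 4 motifs. Of all 32851 stretches of this length 32.7% held the GC box, 12.4% TATAAA, 16.5% ACAAAG and 16.1% AGAACA on either strand, so such matches are common. They describe the letters and show no binding.

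Other neuronal genes were also highest in replicate 1 of both sexes. This was noticed after the values were seen. Of the 14 axon and synapse genes, all measured, 10 were highest in replicate 1 of both sexes (Prph, Nefm, Nefh, Tubb3, Uchl1, Stmn2, Gap43, Snap25, Syt1 and Rtn1), as were 6.56% of all genes. Their summed level was 3476 in female replicate 1 and 2358 to 2722 in the other females, and 3025 in male replicate 1 and 2031 to 2384 in the other males. Tubb3, the tubulin of neurons, had 340 and 283 in those hearts and at most 229 elsewhere. Of the 20 Schwann lineage genes 4 were highest there (Ngfr, L1cam, Fabp7 and Kcna1; 20%), and of the 11 myelin genes 3 (Cnp, Nfasc and Gal3st1; 27.3%). Sox10, Mbp, S100b, Dbh and Mal were not highest there in both sexes. Of 8 fat markers, 4 (Adipoq, Plin1, Cidec and Retn) were likewise highest in replicate 1 of both sexes. Their list summed to 7153 in female replicate 1 against 2866 to 3926 in the other females, and to 4300 in male replicate 1 against 3830 to 4747 in the other males. The part of neighbouring tissue in the neuronal values was not tested.

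Between the sexes, 0 of the 14 axon and synapse genes passed in limma, edgeR, limma-voom or, for the genes it tested, DESeq2, and 4 (Nefm, Ina, Stmn2 and Gap43) had an unadjusted p under 0.05, where 16% of all genes did. The difference was positive for 12 and negative for 2, where 49.1% of all genes were negative, with a median of 0.26. Uchl1, a ubiquitin hydrolase of neurons, averaged 526 ± 59.5 for females and 496 ± 30.4 for males, with a log2 difference of 0.08 (limma adjusted p = 0.687). Stmn2, a tubulin-binding protein of growing axons, had 442 ± 67.4 and 342 ± 81.6, a difference of 0.38 (limma adjusted p = 0.297). Sncg, a synuclein, gave 0.12 (limma adjusted p = 0.638) and Rtn1, a reticulon, 0.25 (limma adjusted p = 0.401). The hearts of the sexes overlapped for all 14 genes.

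**Figure D4:**
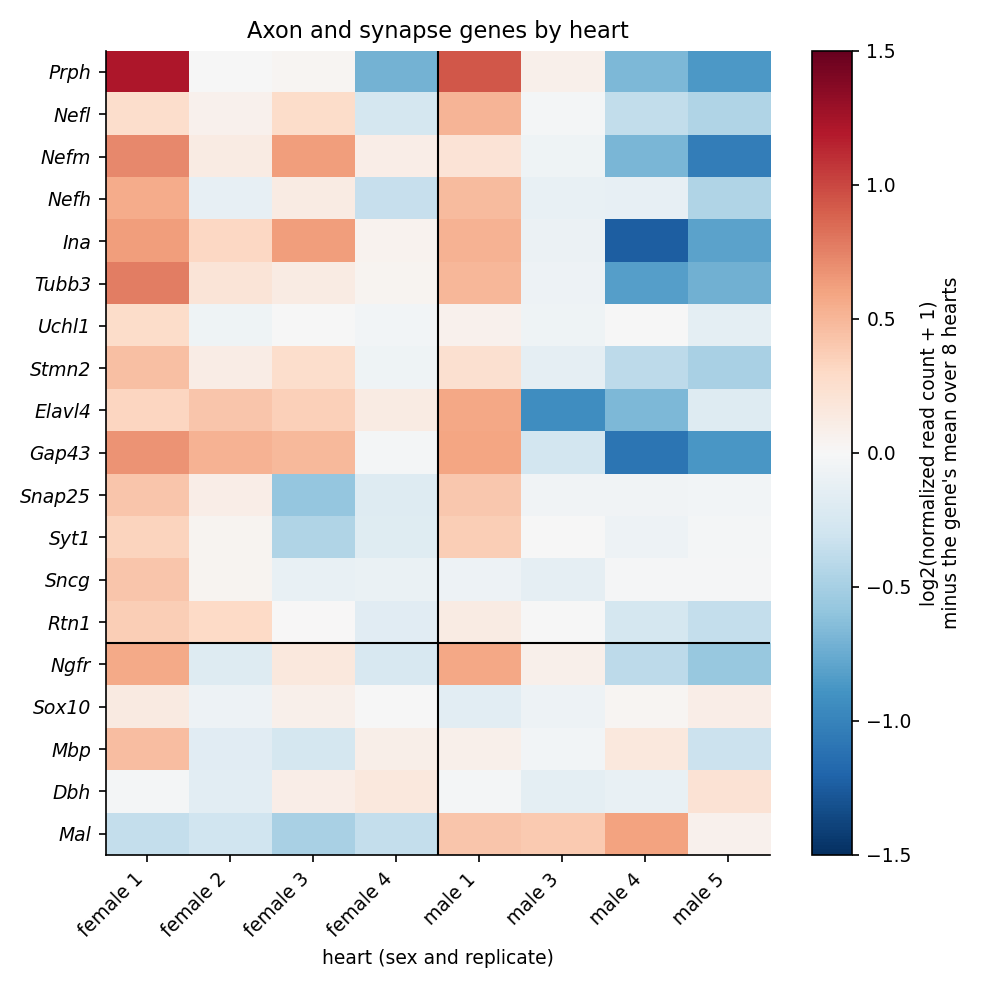
Log2(normalized read count + 1) minus each gene's mean over 8 hearts (colour), for the 14 axon and synapse genes (above the line) and Ngfr, Sox10, Mbp, Dbh and Mal (below), in each heart (columns). Within each sex most axon genes are highest in replicate 1 (10 of 14 in both sexes), Sox10 and Dbh are nearly flat, and Mal splits by sex.

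Of the genes of cholinergic neurons of cardiac ganglia, Slc5a7 and Chrna3 were low. Of 7 listed, 3 had a row, and 0 passed in limma (0 at an unadjusted p under 0.05), edgeR, limma-voom or, for the gene it tested, DESeq2. Slc5a7, the choline transporter, had 70.8, 2.91, 21.3 and 11 in the females and 66.8, 53.4, 24.7 and 22.9 in the males, again highest in replicate 1 of each sex. Chrna3, the nicotinic receptor subunit of autonomic ganglia, had 30.1, 0.970, 10.6 and 13.4 in the females and 22.0, 14.6, 9.38 and 8.45 in the males. Both genes had their lowest value in female replicate 2. Ache, the acetylcholinesterase that muscle also makes, was even, with 291 ± 31.4 and 293 ± 29.2.

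Among 8 sensory nerve genes, 6 had a row, and 0 passed in limma (0 at an unadjusted p under 0.05), edgeR, limma-voom or, for the genes it tested, DESeq2. Scn10a, a sodium channel of sensory neurons, averaged 208 ± 23.7 for females and 252 ± 43.9 for males, with a log2 difference of -0.26 (limma adjusted p = 0.356). Avil, P2rx3 and Tac1 gave 0.07, 0.14 and -0.00.

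Growth factors that steer cardiac nerves did not differ detectably. Of 17 ligand, receptor and guidance genes, 16 had a row, and 0 passed in limma, edgeR, limma-voom or, for the genes it tested, DESeq2. At an unadjusted p under 0.05 there were 2, where 16% of all genes passed. The median difference of the 16 genes was 0.04. Nrtn, the ligand neurturin, averaged 1532 ± 74.6 for females and 1483 ± 75.8 for males, with a log2 difference of 0.05 (limma adjusted p = 0.70). Ret, the signalling receptor of its family, had 543 ± 74.5 and 628 ± 117, a difference of -0.20 (limma adjusted p = 0.537). Gfra1, a co-receptor of that family, had 696 ± 52.5 and 598 ± 26.4. Each female lay above each male, as for 4.52% of all genes, with a difference of 0.22 that did not pass (limma adjusted p = 0.127). Sort1, a co-receptor of p75 for unprocessed neurotrophins, gave 0.07 (limma adjusted p = 0.542).

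No relative of Mal in the MARVEL family passed the test with all hearts. Of 15 listed, 13 had a row. Apart from Mal, 0 of 12 passed in limma, edgeR, limma-voom or, for the genes it tested, DESeq2. At an unadjusted p under 0.05 there were 2 (Mall and Cmtm3), where 16% of all genes passed. Myadm, Marveld1, Cmtm4 and Cmtm6 were the most abundant, with log2 differences of -0.09, -0.03, 0.02 and -0.13. Without male replicate 5, Cmtm6 passed as lower in females (-0.20, limma adjusted p = 0.0275), and in the other alternatives it did not (0.107 to 0.749). Mall, the nearest relative of Mal by name, lies beside it on chromosome 2 (127704386 to 127729932) and was chosen after its values were seen. It had 440.3, 322, 287 and 412 in the females and 452, 498, 461 and 397 in the males. The sexes overlapped, and the difference was -0.32 (SE 0.13, limma adjusted p = 0.266).

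Genes whose pattern over the hearts was most like that of Mal were found outside the nerve lists. Over 14057 other genes with a mean of at least 50, the highest Pearson r in log2 values over the 8 hearts was with Amot (0.98), Pld4 (0.98), Tnfaip8l2 (0.97), Slc11a1 (0.97) and Hfe (0.97). With the sex means removed it was with Irf8 (0.99), Cd300ld (0.99), Fam129b (0.98), Gatm (0.98) and Pltp (0.97). These are the highest of many values over 8 hearts of the same libraries, and they are a description. Mbp was at rank 1737 of 14057 by the second measure and 6283 by the first.

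Levels of other cell types that can hold Mal were set beside it. T cell and thymus markers (10 of 14 measured) summed to 339, 468, 177 and 158 in the females and 229, 161, 500.3 and 162 in the males. The highest sums were in female replicate 2 and male replicate 4, where Mal was 711 and 1329. Male replicates 3 and 5 had low sums, with Mal at 1147 and 912. Rag1 was at 0 in 1 heart and Dntt in 4. Of 10 epithelial markers, 6 were measured, with summed levels of 361 to 617 in females and 384 to 694 in males. Of these 2 lists 0 genes passed in limma, edgeR, limma-voom or, for the genes it tested, DESeq2. Cd3e alone had an unadjusted p under 0.05, where 16% of all genes did. Macrophage markers were added after the genes most like Mal had been seen. All 14 were measured, 3 of them (Csf1r, C1qa and C1qb) fell in females and all 14 differences were negative, with a median of -0.31, where 0.687% of all genes were called lower and 49.1% had a negative difference. Each of the 3 calls ended without replicate 1 of both sexes (limma adjusted p = 0.0596 to 0.153) and without any single heart other than male replicate 5 and, for Csf1r, female replicate 1. With total reads as a covariate those of Csf1r and C1qb ended too (limma adjusted p = 0.0884 and 0.0545). DESeq2 called 6 of the 14, where it called 690 of all 17911 genes in either direction. The sums were 22355, 21922, 19337 and 20548 in the females and 24860, 27476, 28551 and 23631 in the males. As with Mal, each male was above each female, male replicate 4 was the highest heart, male replicate 5 the lowest male and female replicate 3 the lowest heart. The list was added after seeing genes picked for their likeness to Mal, which was itself chosen as lower in females. Negative differences in it were therefore favoured in advance. The counts of calls and signs and the shared order are a description, and the shared order was not tested. The part of any of these cell types in the level of Mal was not tested.

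**Figure D5:**
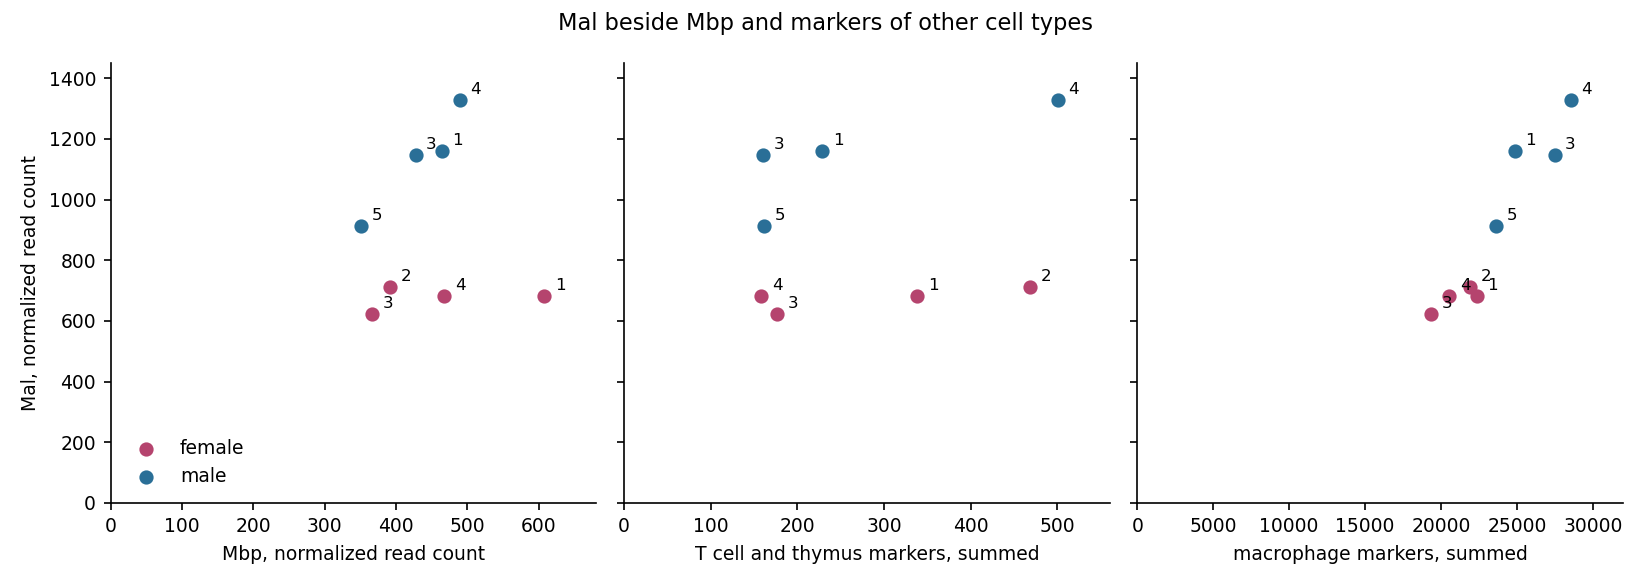
Normalized read count of Mal (y axis, from 0) against that of Mbp (left), the summed T cell and thymus markers (middle) and the summed macrophage markers (right), one point per heart with its replicate number. In the right panel males lie above and to the right of females, from 23631 to 28551 against 19337 to 22355, while the sexes overlap along the x axis in the other panels. The macrophage list was added after the genes most like Mal had been seen.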

How the data were processed

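RNA sequencing of 8 hearts was used. The deposited table gives a normalized signal per gene and heart, which the authors obtained by scaling each library with a size factor. Beside it stand the authors' log2 fold change and the authors' p-values. The build was mm10, per the submitters' processing notes. Of the aligner, counter, strand setting, filter and test, none was given in the sources used here. All values were whole multiples of 1 read (100% within 0.001 reads), so whole reads were recovered. No gene of the table had under 81 reads in all.

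Log2(value + 1) was fitted with limma 3.58.1 (trend, robust; R 4.3.3), female minus male, over all 17911 genes. A value of at least 1 in 4 or more hearts was required, which removed 0 genes. P-values were adjusted by Benjamini-Hochberg over all genes, with a threshold of 0.05. Nothing says more about the hearts than that they are individual, so p-values measure the spread between these hearts. The 12 pairs of hearts within a sex differed by 8.34 to 18.8 times sampling noise (chi-square per degree of freedom). Pairs of genes were compared by exact permutation within the sexes. In simulated data for this comparison (17911 genes, 50 changed genes per fold), limma recovered 54% of 1.25-fold and 98% of 1.5-fold changes, and 5.41% of its calls were false. The changed genes all had a mean of at least 50, and the simulated spread was set by a formula. It was not taken from these hearts, so these shares need not hold for genes as variable as Ngfr and Prph. Alternatives were edgeR 4.0.16, DESeq2 1.42.0 and limma-voom on recovered reads, other pseudocounts and filters, the labels' thresholds, total reads as a covariate, replicate blocks and leaving out hearts. Genes were matched to GENCODE vM21 by identifier (17869 of 17911). Promoter stretches are from RefSeq (GRCm38.p6) and were given for 6 of the 8 listed genes.

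Members, lists and tests were chosen with earlier results of these data known. Named were the listed genes, in each list the called genes and the 4 of highest mean value, and the 5 genes most like Mal. For lists of markers of other cell types the text gives the called genes and the sums, and for melanocytes also Mitf and Kit. Any other gene is marked in the text as picked afterwards. Leaving out replicate 1 of both sexes and the macrophage list were added after seeing the data. Results of a few genes are not reported here.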

Additional observations from a re-analysis of the deposited data

Results flagged for a closer look

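Among 132 groups of 4 hearts (66 genes named by the rule, in each sex), 6 held a heart far from the other 3; chance flags about 1 in 20 groups. Cd4 in male replicate 4 was 85.2 (58.6 to 62.0 in the other males). Cd8a there was 72.4 (12.1 to 16.5). Rag1 there was 108 (1.72 to 3.62). Kit in male replicate 5 was 579 (390.4 to 421). Cidea in female replicate 1 was 1392 (1284 to 1295 in the other females). C1qb in female replicate 3 was 1870 (2079 to 2113).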

How the results depend on the processing

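The difference of Mal kept its direction in all 19 alternatives (-0.87 to -0.64). Mal was chosen for this difference in the same hearts, so a kept direction was favoured in advance and is a description. Of the other 6 listed genes, 0 were called in any alternative. Genes called over the table numbered 208 by limma, 690 by DESeq2, 64 without replicate 1 of both sexes and 77 to 516 without 1 heart, lowest without female replicate 2 and highest without male replicate 5. Without female replicate 3 or 4 it was 110 and 129, and without male replicate 1, 3 or 4 it was 137, 94 and 85; the cause was not tested. Title numbers shared by the sexes (1, 3 and 4) did not pair the hearts (correlations of deviations 0.166, -0.0463 and -0.108), and 2 of 6 hearts correlated best with their own number. With a replicate block by title number 145 genes were called, and by library code number 26 (0.166, -0.0463 and 0.124; 3 of 6 hearts). Pairs of listed genes passing numbered 0 by Spearman, 0 to 0 without 1 heart and 0 without replicate 1 of both sexes, where too few arrangements remained. Differences that changed sign were small or noisy. Without replicate 1 of both sexes they were Mbp -0.044, Sox10 -0.020, Ddc -0.096, Ache 0.016, Sncg -0.0016 and Tac1 0.0092. With the replicate block by title number they were S100b 0.048, Cyb561 0.0015, Ache 0.011, Chrna3 0.16, Avil -0.080, Marveld1 0.0037 and Cmtm4 -0.0030, and by library code number Cnp 0.019, Slc18a2 -0.011, Chrna3 0.21 and Marveld1 0.0028. With total reads as a covariate they were Dbh -0.083, Ddc -0.13 and Tac1 0.27. Ache was 0.0074 by limma-voom, and Chrna3 was 0.0051 by edgeR with TMM, 0.014 by DESeq2 and 0.0035 with upper quartile factors. Leaving out 1 heart at a time gave -0.081 to 0.16 for Mbp, -0.14 to 0.038 for S100b, -0.014 to 0.37 for Ngfr, -0.011 to 0.11 for Dbh, -0.096 to 0.62 for Prph, -0.050 to 0.020 for Cnp, -0.15 to 0.028 for Cyb561, -0.071 to 0.18 for Ddc, -0.039 to 0.085 for Slc18a2, -0.068 to 0.064 for Ache, -0.99 to 0.34 for Chrna3, -0.082 to 0.18 for Avil and -0.26 to 0.24 for Tac1. The blocks also ended the calls of Gpm6b (limma adjusted p = 0.0952 and 0.211), Dct (0.148 and 0.33), Ryr2 (0.078 and 0.253) and Csf1r (0.117 and 0.401), and that by library code number those of C1qa (0.27) and C1qb (0.376). Total reads as a covariate ended the call of Ryr2 (0.0845). Listed genes with few reads were S100b (53 to 82 per heart), Ngfr (56 to 165) and Prph (29 to 156).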
